A study of Mus musculus with 5 samples.

Results

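The MYC network is a set of transcription factors that are linked by 1 shared partner, MAX. Its 10 genes described here are Myc, Mycn and Mycl, which encode the activating factors, Max, and the antagonists Mxd1, Mxd3, Mxd4, Mxi1, Mnt and Mga. They were taken by symbol, and the set was chosen with earlier results of these data known. All 10 are among the 17739 genes of the deposited expression table. Expression was measured by RNA sequencing in 5 cerebellar tumours (tumours 1, 5, 8, 14 and 15) of Math1-Cre;Gli2A mice, bred from Math1-Cre and R26;Gli2A parents and kept on a doxycycline diet from embryonic day 0. Math1-Cre drives recombination in granule neuron progenitors, and the labels describe GLI2 as active in all 5. All samples belong to this single group, so the data hold no untreated, GLI2-inactive or normal cerebellar sample, and every comparison below is between genes within a tumour or between tumours. The labels do not state the animals' ages, or that each number is a separate animal, so errors over the 5 samples measure their spread, part of which may be technical.

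MYC, MYCN and MYCL are related basic helix-loop-helix leucine zipper proteins that bind DNA as dimers with MAX, mostly at the E-box CACGTG, and raise transcription of genes for growth and division. The MXD proteins (MXD1, MXD3, MXD4 and MXI1) and MNT compete for MAX and for the same sites and bring in the SIN3-HDAC corepressor, while MGA, a very large protein that also binds MAX, belongs to a Polycomb complex. In the developing cerebellum Mycn is induced by Sonic hedgehog (SHH) signalling and sustains the division of granule neuron progenitors, the cells from which SHH medulloblastoma arises.

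The E-box is also found in promoters of the network's own genes, and the sites present in the reference sequence are shown because they are the element the encoded proteins recognise. RefSeq start-site windows (GRCm38.p6, 250 bases before to 50 after the start) were matched for 9 of the 10 genes. Myc had no such window and was not searched. CACGTG, which reads the same on both strands, was in a window of 3 of these 9 (Max, Mnt and Mxd4), against 8.09% of the 27025 genes with such windows. A match describes the sequence only. The sites are printed 5′ to 3′ on the gene's strand, with the E-box in capitals. Starts are those of RefSeq, whereas the gene positions given below are from GENCODE. All printed bases lie outside these GENCODE spans, those of Max included although its E-box crosses the RefSeq start.
Mnt (chr11:74830761-74830846, plus strand, E-box from 123 bases before the start): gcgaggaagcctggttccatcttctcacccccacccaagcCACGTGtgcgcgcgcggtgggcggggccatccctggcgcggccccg
Mxd4 (chr5:34187884-34187960, minus strand, E-box from 219 bases before the start): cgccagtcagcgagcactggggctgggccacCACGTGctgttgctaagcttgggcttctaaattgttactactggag
Max (chr12:76962234-76962263, minus strand, E-box from 3 bases before the start and across it): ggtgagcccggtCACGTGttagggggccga
The motif GACCACCCA, searched on both strands as a site for GLI factors, was in a window of 0 of the 9 genes, Mycn included, and of 0.29% of all genes with windows, which says only that these letters are not in these windows.

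Values are on the log2 scale of the deposited table. For comparisons between genes, the log2 of the gene's exon length in kilobases was subtracted, since a longer transcript yields more reads; this is called the level per length. The tumours expressed markers of the granule lineage that the labels imply: Zic1 and Pax6, factors of granule cell progenitors, averaged 15.08 ± 0.05 and 13.30 ± 0.08 (log2 value, SD, n = 5), and the progenitor factor gene Atoh1 averaged 8.62 ± 0.67. Markers of several, though not all, other cell types were highest in tumour 5. All 7 oligodendrocyte, 7 of 8 microglia and macrophage and all 4 choroid plexus markers were highest there, against 24.1% of the 13691 genes that averaged 5 or more on the log2 scale, called expressed genes from here on. The summed oligodendrocyte marker level ran from 14.43 in tumour 1 to 15.84 in tumour 5 on the log2 scale, with tumour 8 next at 15.47. The summed microglia level ran from 12.60 to 13.41 and the summed choroid plexus level from 13.08 to 14.75. No marker of these lists had a mean under 5. In bulk samples, fewer cells of a type and less RNA per cell cannot be told apart.

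Mycn had the highest level of the 10 genes in every tumour. Mycn (GRCm38 chromosome 12, 12936093 to 12941914, minus strand, protein coding) had log2 values of 12.40 in tumour 1, 12.13 in tumour 5, 12.17 in tumour 8, 12.37 in tumour 14 and 12.14 in tumour 15. Tumours 1 and 14 were high and the other 3 lay close together. The mean of 12.24 ± 0.13 corresponds to a level per length of 10.52 ± 0.13, above that of 96.4% of the 13498 expressed genes of known length.

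Mycl was the second of the MYC genes and Myc the lowest. Mycl (chromosome 4, 122995652 to 123002485, plus strand), described mainly in neural and lung tissue and in small cell lung cancer, had log2 values of 11.59, 11.46, 11.85, 11.91 and 11.74 in tumours 1, 5, 8, 14 and 15. Tumours 8 and 14 were high and tumour 5 low. Its level per length was 9.70 ± 0.19, above that of 91.8% of genes. Myc (chromosome 15, 61985391 to 61990374, plus strand), the family's founding oncogene and itself an early response gene, had log2 values of 9.64, 9.64, 9.83, 9.88 and 9.75 in the same order, equal in tumours 1 and 5 to within 0.01 and highest in tumour 14. Its level per length was 8.31 ± 0.11, above that of 73.0% of genes.

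The difference in level per length between MYC genes was several times the spread between tumours. Mycn exceeded Myc by 2.22 ± 0.16 (SD, n = 5), a 4.65-fold difference, and by between 2.07 in tumour 8 and 2.48 in tumour 1. Mycn exceeded Mycl by 0.83 ± 0.20, or 1.77-fold, with the smallest difference, 0.61, in tumour 8 and the largest, 1.10, in tumour 1; with no length subtracted it was 0.53 ± 0.20. Myc minus Mycl was -1.39 ± 0.09. Each sign held in 5 of 5 tumours and gave p = 0.062 by the exact two-sided sign-flip permutation test, the smallest p that 5 samples allow, so no such comparison can reach 0.05. Of the summed level per length of the 3 genes, Mycn made up 56.2% ± 3.19, Mycl 31.7% ± 2.65 and Myc 12.1% ± 0.71. The Mycn share was highest in tumour 1 (60.8%) and lowest in tumour 8 (52.9%), where Mycl reached its highest share (34.6%).

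**Figure D1:**
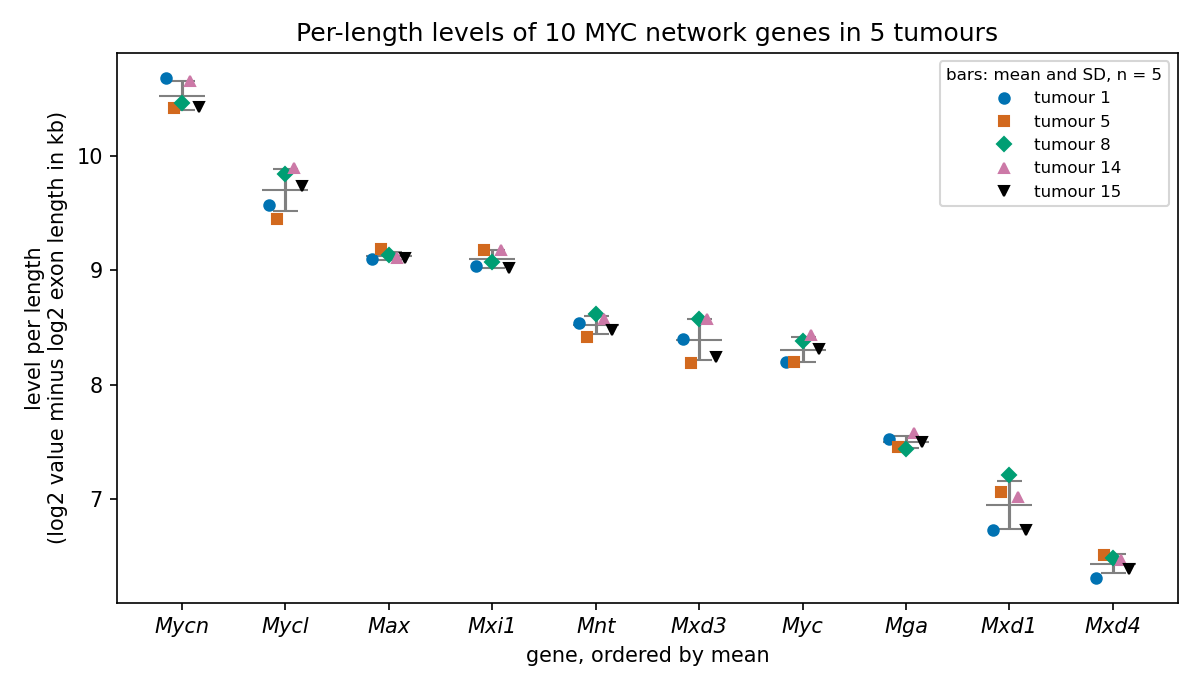
Level per length (log2 value minus log2 exon length in kb) of each gene, with 1 point per tumour and bars for the mean and SD (n = 5), genes ordered by mean. Mycn lies highest at 10.52 and Mxd4 lowest at 6.44, and the points of Max and Mxi1 overlap, as do those of Mnt, Mxd3 and Myc.

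Max, whose protein is the partner shared by the other members, was among the most even genes of the table. Max (chromosome 12, 76937269 to 76962201, minus strand) had log2 values of 10.95 in tumours 1, 14 and 15, 11.03 in tumour 5 and 10.98 in tumour 8. Its SD of 0.03 was larger than that of only 3.56% of expressed genes, and without tumour 5 it was 0.02. Its level per length, 9.13 ± 0.03, was below that of Mycn, with a difference of Max minus Mycn of -1.40 ± 0.15 (below 0 in all 5, p = 0.062 by exact permutation of signs). Max amounted to 13.1% ± 1.04 of the summed level per length of its 9 partners, with the highest share in tumour 5 (14.6%) and the lowest in tumour 14 (11.8%). Both values depended on the length used: with the longest annotated transcript in place of all exons, which shortens Max from 3598 to 1942 bases, Max minus Mycn was -0.81 ± 0.15 and the share 19.7% ± 1.52.

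Among the MXD genes Mxi1 had the highest level per length and Mxd3 the second. Mxi1 (chromosome 19, 53310518 to 53375810, plus strand), which encodes an MXD protein found in many tissues, had log2 values of 11.81, 11.95, 11.84, 11.95 and 11.79 in tumours 1, 5, 8, 14 and 15. Tumours 5 and 14 were equal to the second decimal and highest. Mxd3 (chromosome 13, 55325168 to 55329823, minus strand), the member expressed in dividing cells, granule neuron progenitors among them, had log2 values of 9.64, 9.43, 9.82, 9.82 and 9.48. Tumours 8 and 14 were high and tumours 5 and 15 low.

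Mxd1 and Mxd4, the MXD genes best known from differentiating cells, were the lowest of the network per length. Mxd1 (chromosome 6, 86647042 to 86669161, minus strand) had log2 values of 9.56, 9.88, 10.03, 9.84 and 9.56 in tumours 1, 5, 8, 14 and 15. Mxd4 (chromosome 5, 34173883 to 34187720, minus strand) had 9.40, 9.60, 9.57, 9.56 and 9.48. Both were lowest in tumour 1, which for Mxd1 was level with tumour 15. The levels per length were 9.10 ± 0.08 for Mxi1, 8.39 ± 0.18 for Mxd3, 6.95 ± 0.21 for Mxd1 and 6.44 ± 0.08 for Mxd4.

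Mxd3 exceeded Mxd4 by 1.96 ± 0.19 and Mxd1 by 1.44 ± 0.21, and Mxd3 minus Mxi1 was -0.70 ± 0.19, each with 1 sign in all 5 tumours (p = 0.062, exact permutation of signs). All 3 differences depend on the length used. Without the subtraction, the difference of log2 values Mxd3 minus Mxd4 was 0.12 ± 0.19, above 0 in 4 of 5 tumours, and Mxd3 minus Mxd1 was -0.14 ± 0.21, above 0 in 1 of 5. Mxd3 minus Mxi1 stayed below 0 in all 5, at -2.23 ± 0.19 with no length subtracted and -0.30 ± 0.19 with the longest coding transcript. Of the summed level per length of the 4 MXD genes, Mxi1 made up from 46.5% in tumour 8 to 52.8% in tumour 5. The share of Mxd3 was 30.8% ± 2.60, from 26.6% in tumour 5 to 32.9% in tumour 8. Exons of Mxd3 overlap those of Prelid1 on the opposite strand over 105 bases, those of Mxd4 overlap Gm42846 over 514 bases and those of Mxi1 overlap Gm10197 over 194 bases, also on the opposite strand. The libraries are strand-specific per the labels, but whether the counting used strand is not stated in them.

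Of the antagonists outside the MXD family, Mga was the more even, and Mnt varied about as much as Mxd4 and Mxi1. Mnt (chromosome 11, 74830920 to 74845725, plus strand), a broadly expressed repressor that restrains MYC in growing and resting cells, had log2 values of 10.75, 10.63, 10.83, 10.78 and 10.69 in tumours 1, 5, 8, 14 and 15, highest in tumour 8 and lowest in tumour 5. Mga (chromosome 2, 119897228 to 119969581, plus strand) had 11.46, 11.40, 11.38, 11.52 and 11.44, within 1.10-fold of each other. Its exons cover 15340 bases, the most of the 10 genes, and its level per length was 7.50 ± 0.06 against 8.53 ± 0.08 for Mnt. Mnt exceeded Mxd4 by 2.09 ± 0.12 and Mga by 1.02 ± 0.09 per length, positive in all 5 tumours each (p = 0.062, exact permutation of signs). The deposited log2 values put Mga above Mnt, at a difference of Mnt minus Mga of -0.71 ± 0.09. Mnt minus Mxd4 kept its sign but was 1.21 ± 0.12 with no length subtracted, 1.22 ± 0.12 with the longest transcript and 0.97 ± 0.12 with the longest coding one.

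Summed per length, the 3 MYC genes exceeded the 6 antagonists by 0.67 ± 0.08 on the log2 scale, a ratio between 1.46 and 1.68 over the tumours. The difference was 0.74 in tumour 1, 0.55 in tumour 5, 0.62 in tumour 8, 0.73 in tumour 14 and 0.71 in tumour 15. Tumour 5 had the lowest sum of MYC genes (11.20, against 11.31 to 11.51 in the others), while its antagonist sum (10.66) lay inside the range of the others (10.60 to 10.77). The sign depended on length: it was -0.23 ± 0.10 with no length subtracted, and 0.57 ± 0.09 with the longest annotated transcript. Of the antagonists' sum, Mxi1 made up 33.3% ± 1.69, Mnt 22.4% ± 0.87, Mxd3 20.5% ± 1.68, Mga 11.0% ± 0.62, Mxd1 7.56% ± 0.85 and Mxd4 5.28% ± 0.29. The make-up differed little between tumours, with the widest range for Mxi1, from 31.2% in tumour 8 to 35.9% in tumour 5. It did depend on the length used. With no length subtracted, Mga made up 26.1% ± 1.22 and Mxd3 7.52% ± 0.74. With the longest coding transcript, Mxd3 made up 26.2% ± 2.07 and Mnt 16.2% ± 0.66. Mxi1 stayed the largest part by mean in both, at 35.1% and 32.3%.

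**Figure D2:**
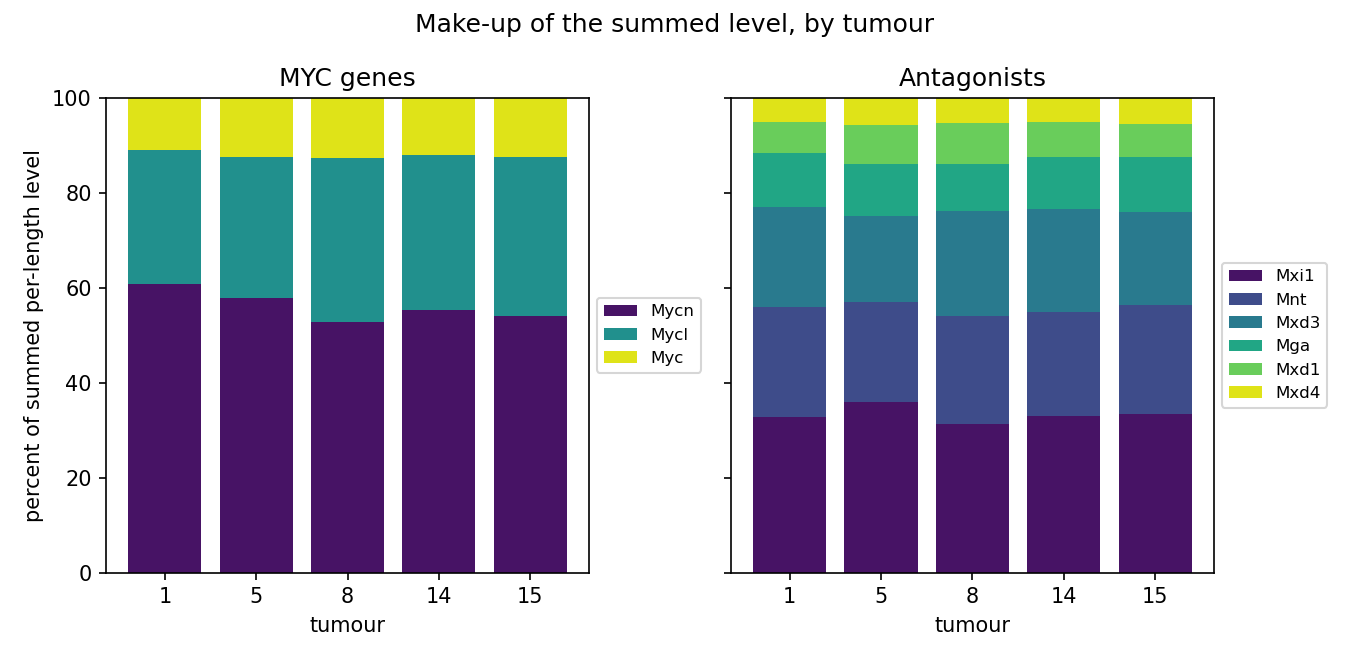
Percent of the summed level per length made up by each gene in each tumour, for the 3 MYC genes (left) and the 6 antagonists (right). Mycn is the largest part of the left bars, from 52.9% to 60.8%, and Mxi1 of the right bars, from 31.2% to 35.9%.

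The full order of levels per length was Mycn, Mycl, Max, Mxi1, Mnt, Mxd3, Myc, Mga, Mxd1 and Mxd4. Of the 45 pairs of genes, 43 had the same sign in 5 of 5 tumours, against 92.7% of all pairs of expressed genes, so a stable order is no more than most genes show. The neighbours Max and Mxi1 differed by 0.03 ± 0.06 (above 0 in 4 of 5, p = 0.438 by exact permutation of signs), and Mxd3 and Myc by 0.09 ± 0.12 (above 0 in 3 of 5, p = 0.25 by the same permutation test). Mnt and Mxd3 kept 1 sign but differed by only 0.13 ± 0.11. With the longest transcript in place of all exons, the pairs Mycl and Max, Myc and Mnt, and Mxd1 and Mga were those without 1 sign. Max then lay above Mycl by mean, and Mxd3 exceeded Mnt in all 5 tumours, by 0.30 ± 0.11. With the longest coding transcript Mxd3 exceeded Mnt by 0.69 ± 0.11, also in all 5. Max minus Mxi1 was 0.48 ± 0.06 with the longest transcript and -0.89 ± 0.06 with no length subtracted, each with 1 sign in all 5.

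Between tumours, every member stayed within a 2-fold range, as most expressed genes did. The range over the 5 tumours reached 2-fold for 0 of the 10 genes, against 3.79% of expressed genes and 3.07% of all genes. The widest was Mxd1 (1.39-fold), followed by Mycl (1.36-fold) and Mxd3 (1.31-fold), and the narrowest Max (1.06-fold). The median SD was 0.09 over the members, 0.11 over expressed genes and 0.09 over the 7876 genes averaging 9 or more, as all 10 members did. The SD of Mxd1 (0.21) was larger than that of 81.6% of expressed genes, that of Mycl (0.19) than 76.8% and that of Mxd3 (0.18) than 75.8%. Mycn (0.13) and Myc (0.11) lay near the middle, at 59.6% and 49.6%, and Mxd4, Mnt, Mxi1, Mga and Max below it, at 32.5% or less. Without tumour 5 the SD was 0.23 for Mxd1, 0.14 for Mycl and 0.16 for Mxd3.

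**Figure D3:**
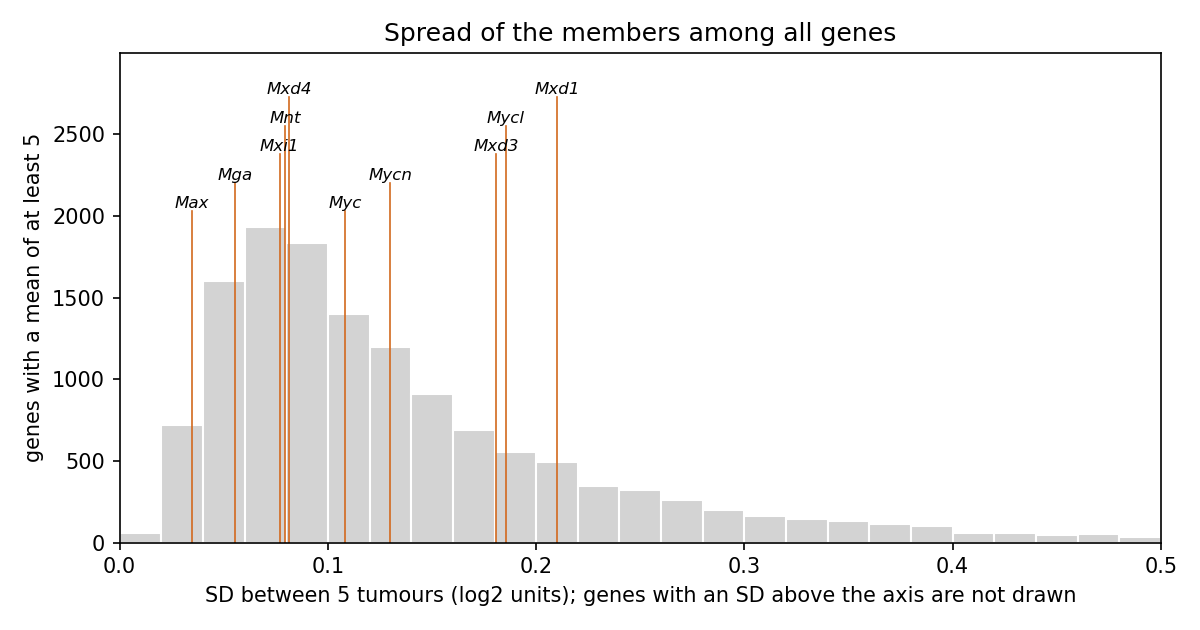
SD between the 5 tumours (log2 units) for expressed genes, as counts of genes in bins of 0.02 (grey), with a line for each of the 10 genes; genes beyond 0.5 are not drawn. Max lies at 0.03 and Mxd1 at 0.21, and 6 of the 10 lie below the median gene at 0.11.

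The members did not all peak in the same tumour. Myc, Mycl, Mxd3 and Mga, 4 of 10, were highest in tumour 14 (15.8% of expressed genes), and Mxd1 and Mnt in tumour 8 (18.5%). Max, Mxd4 and Mxi1 were highest in tumour 5 (24.1%) and Mycn in tumour 1 (20.2%). Mycn, Mycl, Mxd3 and Mnt were lowest in tumour 5 (24.6%), Myc, Max, Mxd1 and Mxd4 in tumour 1 (16.9%), Mga in tumour 8 (22.6%) and Mxi1 in tumour 15 (22.9%). No member was lowest in tumour 14 (13.0%) or highest in tumour 15 (21.4%). With so few genes these counts are a description, and centring each tumour on its median moved the highest tumour of Mxi1 to 14 and the lowest tumour of Max and Mxd1 to 15. Against the median of the other 4 tumours, tumour 5 deviated by -0.34 for Mycl, -0.30 for Mxd3, -0.15 for Myc, -0.14 for both Mycn and Mnt and -0.05 for Mga, and by 0.18 for Mxd1, 0.12 for Mxi1 and 0.08 for Mxd4 and Max. Tumour 5 also had the highest levels of the oligodendrocyte, microglia and choroid plexus markers given above, and their part in these deviations was not tested.

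**Figure D4:**
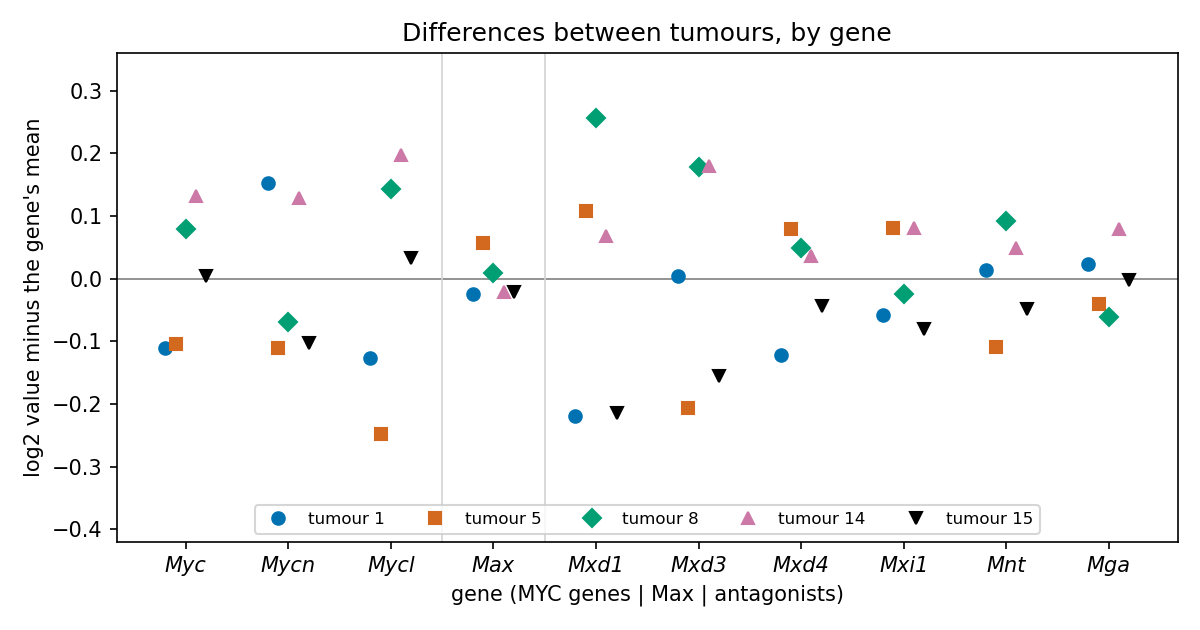
Each tumour's log2 value minus the gene's mean over the 5 tumours, with 1 point per tumour. Tumours 8 and 14 lie above the mean for Myc, Mycl and Mxd3, and tumours 1 and 14 for Mycn, whose highest value is 12.40 in tumour 1.

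Mycn and the other SHH targets did not share the same order of tumours. Of 7 other SHH targets, 6 were lowest in tumour 5 (24.6% of genes), as Mycn was, and the list's median deviation there was -0.55, against -0.14 for Mycn. The receptor gene Ptch1 averaged 14.47 ± 0.32, and Hhip, the most variable of them, 11.97 ± 0.54, with 11.13 in tumour 5. The SD of Mycn, 0.13, was below the list's median SD of 0.27. In tumour 8, where these targets had a median deviation of 0.19, Mycn deviated by -0.08.

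Genes of dividing cells were highest in tumours 14 and 8, as were Myc, Mycl, Mxd3 and Mnt. Of 10 proliferation genes, 7 were highest in tumour 14 (15.8% of genes) and 3 in tumour 8 (18.5%), and 7 were lowest in tumour 5. The list's median deviations were 0.21 in tumour 14, 0.17 in tumour 8, -0.06 in tumours 1 and 15 and -0.20 in tumour 5. Mxd3 had 0.26, 0.25, -0.01, -0.25 and -0.30 in tumours 14, 8, 1, 15 and 5. Mycl had 0.24, 0.19, -0.21, 0.02 and -0.34 in the same order. Mki67, the proliferation marker, averaged 14.00 ± 0.16 and the spindle checkpoint kinase gene Bub1 10.64 ± 0.12. Immediate early genes, a class to which Myc also belongs, were lowest in tumour 1 for 9 of 9 genes (16.9% of genes), with a median deviation of -0.69. Jun averaged 14.69 ± 0.29 and the stress factor gene Atf3 10.46 ± 0.56. Myc deviated by -0.15 in both tumours 1 and 5, whereas the immediate early list deviated by 0.15 in tumour 5. With 5 tumours no correlation is given.

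The cofactors and antagonist complexes were expressed in all tumours. The log2 values of these genes are as deposited and give no order between genes, since lengths differ. All 11 MYC cofactor genes averaged 9 or more, as did 7876 of the 13691 expressed genes. Ruvbl1, an ATPase of chromatin complexes, averaged 9.66 ± 0.10, and Cdk9, the elongation kinase and the most variable, 10.74 ± 0.13. Of 8 SIN3-HDAC corepressor genes, the deacetylase gene Hdac2 averaged 12.52 ± 0.09 and Sap18 9.02 ± 0.07, and the largest SD was that of Hdac1 (10.74 ± 0.09). Of 7 genes of the MGA complex, Tfdp1, the partner of E2F factors, averaged 11.68 ± 0.06, the ubiquitin ligase gene Ring1 8.79 ± 0.08 and E2f6, the most variable, 9.43 ± 0.10. In the related MLX arm, whose factors respond to glucose, Mlxip averaged 10.53 ± 0.07 and Mlxipl 5.71 ± 0.20. In these 4 lists 0 genes spanned 2-fold, which is near the background of 3.79% of expressed genes.

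Among regulators of MYC protein stability, the ubiquitin ligase gene Huwe1 averaged 13.48 ± 0.13. Aurka, a mitotic kinase that stabilises MYCN protein, had the largest SD (10.62 ± 0.17), with log2 values of 10.47 in tumours 1 and 15, 10.58 in tumour 5 and 10.80 in tumours 8 and 14. Of these 9 genes, 6 were highest in tumour 14 (15.8% of genes).

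Of 23 genes known as targets of MYC proteins, 22 averaged 9 or more, against 7876 of the 13691 expressed genes, with the list median between 11.06 in tumour 5 and 11.30 in tumour 14. The helicase gene Eif4a1 averaged 14.02 ± 0.06. The telomerase gene Tert was the most variable (5.23 ± 0.33), from 4.92 in tumours 5 and 8 to 5.72 in tumour 15. Of the 23, 10 were highest in tumour 14 (15.8% of genes), 9 were lowest in tumour 5 (24.6%) and 0 were lowest in tumour 14 (13.0%). The deviations were small, with list medians of 0.09 in tumour 14 and -0.06 in tumour 5, and 0 of 23 genes spanned 2-fold (3.79% of expressed genes).

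**Figure D5:**
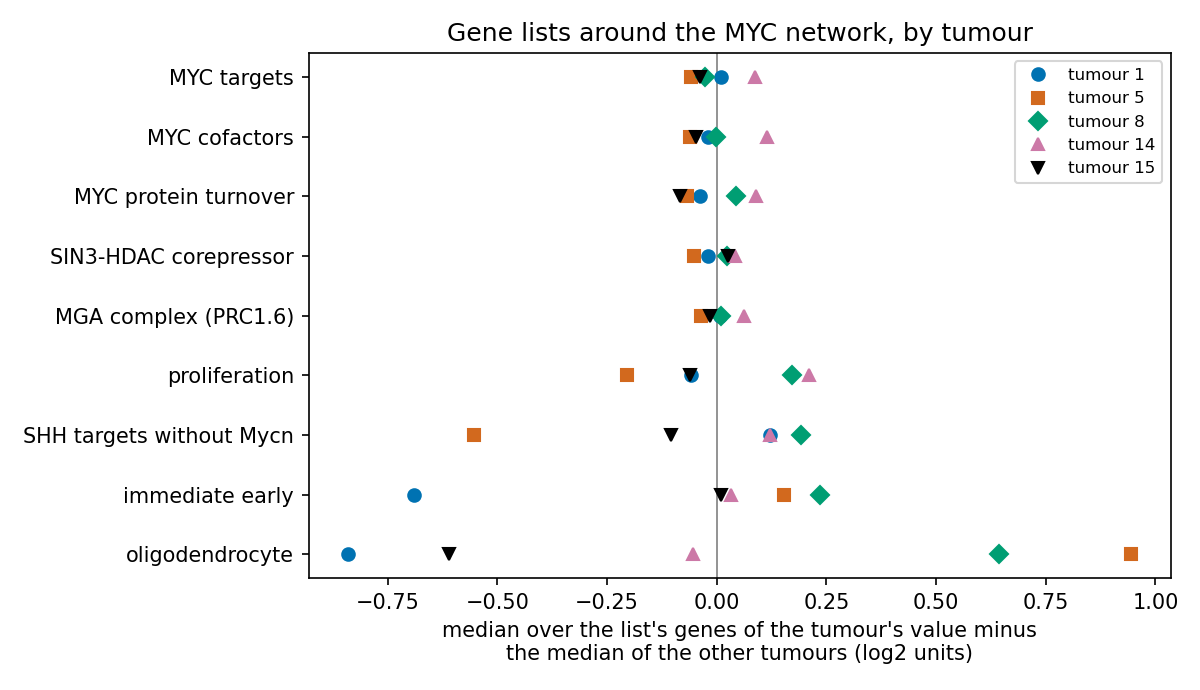
Median over each list's genes of the tumour's deviation, its log2 value less the other 4 tumours' median, with 1 point per tumour. MYC targets stay between -0.06 and 0.09, whereas SHH targets reach -0.55 in tumour 5, immediate early genes -0.69 in tumour 1 and oligodendrocyte markers 0.95 in tumour 5.

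The genes whose values over the 5 tumours lay closest to those of Mycn, after each gene's mean was subtracted, were 9430037G07Rik, Pcdhgb5 and Tcf19, with root mean square differences of 0.026, 0.031 and 0.033 log2 units among 10820 genes with an SD of at least 0.5 times that of Mycn. Tcf19 (10.16 ± 0.12) had 10.30, 10.01, 10.12, 10.25 and 10.09 in tumours 1, 5, 8, 14 and 15. Closest to Mxd1, the most variable member, were Tef, Rassf1 and Sema4d, with differences of 0.019, 0.029 and 0.030 among 7153 genes. Tef, a transcription factor of the PAR bZIP family, averaged 11.42 ± 0.23 and, like Mxd1, was highest in tumour 8 (11.71) and low in tumours 1 and 15 (11.20 and 11.19). With 5 values a gene and so many candidates, such closeness carries no test.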

How the data were processed

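Strand-specific mRNA libraries were made from papain-digested tumour cells, per the labels' protocols. The deposited log2 values were read as the authors' DESeq2 regularised-log values, from the table's name in the labels; no source used here states the transformation. Per the submitters' processing notes, STAR 2.4.1, featureCounts, Subread 1.4.6, mm10 and GRCm38 were used, in roles not stated. For the annotation, strand setting and gene filter: not given in the sources used here. Such values allow for sequencing depth, take no account of transcript length and draw low values towards the gene's mean. The table has 7 columns, and the 2 that match no label were not used, though they may have entered the transformation. Counts were not used, so depth is unknown.

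Exon lengths and positions came from GENCODE M21 (GRCm38), which gave a length for 97.5% of symbols. Pairs of genes were compared within tumours by flipping the signs of the 5 differences (exact permutation test, two-sided, 32 patterns); 45 pairs were computed, with no adjustment, which could only raise p. Genes called variable had a range of at least 2-fold. Named genes were the 10 members, the highest, lowest and most variable gene of each of 9 context lists (2 of these genes are not reported here), and the 3 closest profiles to Mycn and Mxd1; the cell type markers named were picked after their values were seen. Members and lists were chosen with earlier results of these data known. The marker lists of granule neuron differentiation, oligodendrocyte precursors, astrocytes, endothelium, pericytes and fibroblasts were computed and are given in Other observations. The steps, run with scipy 1.17.1, pandas 2.3.3 and numpy 2.4.6 under Python 3.11.15, were tested on simulated data.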

Additional observations from a re-analysis of the deposited data

Results flagged for a closer look

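Among the levels of the 10 genes, 9 differences between genes and 2 summed values, 1 of 21 held a tumour set apart from the rest, where chance flags about 1 in 20. Mnt minus Mga per length was 1.18 in tumour 8 and 0.96 to 1.01 in the other 4, and the gap to the next tumour was 0.74 of the whole range, above the limit of 0.71 for 5 samples. Mnt had its highest value there (10.83) and Mga its lowest (11.38).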

How the results depend on the processing

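Tumours could not be paired between conditions because the labels give a single group. With no length subtracted, 3 results changed sign: Mxd3 minus Mxd1 (-0.14), Mnt minus Mga (-0.71) and the summed MYC genes minus antagonists (-0.23). The last was 0.57 with the longest annotated transcript and 0.45 with the longest coding transcript, a length chosen after seeing the data. Leaving out each tumour in turn, Mycn minus Myc ran from 2.15 to 2.26 and Mycn minus Mycl from 0.76 to 0.88. The Mycn share then ran from 55.0% to 57.0% and the summed difference from 0.65 to 0.70. The count of members spanning 2-fold stayed at 0, as it had to, since leaving out a tumour cannot widen a range. The number of pairs with 1 sign was 40 without length, 42 with the longest transcript and 40 with the coding one, against 43. This number takes no account of which sign, and some pairs took the opposite one. Myc minus Mga was 0.80 with all exons and -1.69 with no length subtracted, and Max minus Mga 1.62 and -0.47, each with 1 sign. By mean, Mga moved from rank 8 with all exons to rank 4 with no length subtracted. In all, 3 of 142 alternative values changed sign, but this fraction is no measure of robustness, since most of the 142 could not change sign. Levels, SDs, shares and counts had no sign to change. Leaving out a tumour could not reverse a difference with 1 sign in every tumour, as all those tested this way had. Among the results counted here, only a change of length could reverse a sign, and all 3 reversals came with no length subtracted. The count took in 9 of the 45 pairs singly. Outside it, Mxd3 minus Mnt went from -0.13 with all exons to 0.30 with the longest transcript and 0.69 with the longest coding one. Several differences between genes kept their sign but changed in size with the length used, as given beside them. The regularised log understates differences of low genes such as Tert and Mlxipl.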

Other observations

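Other marker lists were described by counting where each gene peaked or was lowest and by the median deviation from the other 4 tumours. Of 5 oligodendrocyte precursor markers, 4 were highest in tumour 1 (20.2% of expressed genes), with a median deviation of 0.51. In tumour 5, 3 of these 5 were lowest (24.6%), with a median deviation of -0.34. Pdgfra averaged 12.67 ± 0.25 and Gpr17, the most variable, 11.69 ± 0.58. Of 8 granule neuron differentiation genes, 5 were lowest in tumour 8 (22.6%), with a median deviation of -0.22, and 4 were highest in tumour 5 (24.1%), with 0.21. Gabra6, a receptor subunit gene of mature granule neurons, averaged 6.74 ± 0.65. Median deviations of the astrocyte markers ran from -0.17 in tumour 1 to 0.13 in tumours 5 and 15, and those of the endothelial markers from -0.27 in tumour 14 to 0.54 in tumour 5. Of 5 pericyte and fibroblast markers, 3 were highest in tumour 15 (21.4%), with a median deviation of 0.37, and 3 were lowest in tumour 14 (13.0%), with -0.34.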
